A study of Mus musculus with 18 samples.

Results

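The 3 peroxisome proliferator-activated receptor (PPAR) genes Ppara, Ppard and Pparg and 6 of their classical fat metabolism targets, Angptl4, Cpt1a, Pdk4, Acot1, Acot2 and Plin2, were followed across intestinal tumours of mice that differ in Macrod2. The 9 genes were chosen by name, and all 9 were among the 14271 genes tested, of 24062 in the table. The tumours came from male C57BL/6 mice, all of which carried the Min allele of Apc on 1 chromosome, a truncating mutation in a brake on the Wnt pathway, under which adenomas form along the intestine. Beside it, 6 mice were Macrod2+/+ (wt), 6 Macrod2-/+ (het) and 6 Macrod2-/- (hom), with 1 tumour per mouse. Normal mucosa is not analysed here, and no source used here gives the ages of the mice. Per the source labels, 17 tumours were from the large intestine and het 4 was from the small intestine, so the genotype tests hold 6 wt, 5 het and 6 hom tumours. The design text asks how expression differs between tumours by Macrod2 genotype.

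PPARs are nuclear receptors that bind fatty acids and their derivatives, pair with a retinoid X receptor such as Rxra, and bind DNA at a repeat of the hexamer AGGTCA with 1 base between the copies (a direct repeat called DR1, AGGTCANAGGTCA). PPARα drives the burning of fat in liver, heart and the absorptive cells of the gut, PPARδ is broadly expressed and is a well studied receptor in the intestine of Apc Min mice, and PPARγ is best known for fat cells and is also abundant in colonic epithelium. Among the targets, Cpt1a is the gate of long-chain fatty acids into mitochondria, Pdk4 switches off pyruvate dehydrogenase so that fat replaces sugar as fuel, and Acot1 and Acot2 are cytosolic and mitochondrial enzymes that split fatty acyl-CoA. Angptl4 is a secreted inhibitor of lipoprotein lipase, and Plin2 coats lipid droplets.

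The DNA next to the gene starts is shown first, since the DR1 is the element through which the receptors act on the targets. RefSeq promoter entries (GRCm38.p6) were found for 8 of the 9 genes; Angptl4 had no entry. Within the 250 bases upstream of each start, both strands were searched for the stretch with the fewest mismatches to the 12 fixed bases of the DR1. Plin2 had the closest match, with 2 mismatches on the minus strand relative to the gene, from 225 to 213 bases before the start. Acot2 came next with 3 mismatches, and the best stretches of Cpt1a and Pdk4, the targets that vary most with Ppara below, had 4. The windows read 5′ to 3′ on the strand of the gene, with the best matching stretch in capitals:
Plin2, chr4:86670249-86670308, minus strand: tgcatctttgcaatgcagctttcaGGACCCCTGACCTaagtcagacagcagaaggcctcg
Acot2, chr12:83987779-83987838, plus strand: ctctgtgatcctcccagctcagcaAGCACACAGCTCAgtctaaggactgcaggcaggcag
Cpt1a, chr19:3323131-3323190, plus strand: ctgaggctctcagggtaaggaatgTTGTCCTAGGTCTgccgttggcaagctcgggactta
Pdk4, chr6:5496399-5496458, minus strand: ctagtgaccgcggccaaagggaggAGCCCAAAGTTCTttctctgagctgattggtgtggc
Read on its own strand, the Plin2 stretch is AGGTCAGGGGTCC, in which the first hexamer is complete. Of all 32851 promoter entries, 3.24% held a stretch with at most 2 mismatches, 21.3% one with at most 3, and 74.5% one with at most 4. A match describes the letters of this window and does not show binding, and elements farther from the start were not searched. The starts are those of the RefSeq entries. The Cpt1a window lies upstream of its RefSeq start but inside the gene as GENCODE places it (chr19:3322334-3385733).

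The tumour libraries held 13529204 to 20857918 counts, and precursor ribosomal RNA (Rn45s) made up 27.0% of those in wt 3, against 0.725% or less elsewhere. Macrod2, the targeted gene, was checked first. Its mean was 3.74 CPM (counts scaled to library size with TMM factors) in wt, 2.20 in het and 0.158 in hom, and it ran from 2.93 to 4.55 CPM in wt, 1.61 to 3.48 in het and 0 to 0.405 in hom. The hom tumours lay below all others, while het 6 (3.48 CPM) lay inside the wt range. In hom against wt Macrod2 was the single gene that passed the test (log2 fold change -4.49, SE 0.43, edgeR adjusted p = 0.000117), and in het against wt it did not pass (-0.80, SE 0.37, edgeR adjusted p = 0.999). Genes tied to position along the gut varied within the labels. Gata4, a transcription factor of the upper small intestine, reached 171 CPM in wt 1 and 179 in wt 2, both labelled large intestine, and 166 in het 4, against 0.282 to 47.3 CPM in the 15 other tumours. Car1 and Aqp8, genes of colonic absorptive cells, were at or below 6.59 and 7.70 CPM in every tumour. Fabp6, the bile acid carrier of the ileum, was at 11.2 to 1664 CPM in the 15 others and at 2.30 or less in wt 1, wt 2 and het 4. Car1 and Aqp8 were thus low both with and without Fabp6. Car1 was highest in wt 6, where Fabp6 was at 400 CPM. Aqp8 was highest in wt 5, where Fabp6 was at 29.6 CPM, near the low end of the 15. The other genes of the colonic surface list that the table holds were expressed, such as Krt20 at 361 to 2952 CPM, Guca2a at 41.6 to 567, Car4 at 0.657 to 90.9 and Slc26a3 at 0.365 to 80.3, and small intestinal absorptive cells express several of them too. Genotype tests and correlations are given with and without wt 1 and wt 2.

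Levels between genes were set in order by RPKM as deposited by the authors, a unit that divides a gene's reads by its length and by the depth of the library, over the 17 large intestinal tumours. Cpt1a and Plin2 stood highest, at 40.3 ± 8.82 and 39.5 ± 10.01 RPKM (SD, n = 17 each). Their order was not settled, since Cpt1a was above Plin2 in 9 of 17 tumours. Ppard (23.3 RPKM) and Pparg (18.4 RPKM) followed, then Acot1 (12.5), Angptl4 (9.35), Pdk4 (7.39), Acot2 (4.38) and last Ppara, at 2.94 ± 2.64 RPKM. Each later neighbour in this order was lower than the one before in 11 to 16 of 17 tumours, so no step was kept in every tumour. Ppard and Pparg transcripts were thus more abundant on this scale than those of Ppara on average, and Ppara was above 26.6% of the tested genes.

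Ppara (chr15:85734983-85802819, plus strand) was by far the most variable of the 9. In the wt tumours it ran from 0.292 CPM in wt 4, which had 4 counts, over 1.64 in wt 5, 7.27 in wt 6 and 14.4 in wt 3 to 38.4 in wt 2 and 64.6 in wt 1. The het tumours held 20.3, 15.5, 23.4, 16.4 and 3.37 CPM (het 1, 2, 3, 5 and 6), and het 4 from the small intestine held 30.6. The hom tumours ran from 11.1 CPM in hom 2 over a median of 19.6 to 70.8 in hom 6. So the wt group held both the lowest values and, beside hom 6, the highest, and the 3 genotypes overlapped. Over the 15 tumours without wt 1 and wt 2 the range was 243-fold; it was 43.2-fold without wt 4 and 111-fold without hom 6. The SD of log2 CPM was 1.83 (1.31 without wt 4), higher than that of 99.3% of tested genes, whose median SD was 0.32.

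The other receptors moved little. Ppard (chr17:28232700-28301474, plus strand) had a median of 70.0 CPM in wt (61.2 to 106), 78.7 in het (59.2 to 102) and 70.6 in hom (60.2 to 85.0). Pparg (chr6:115360951-115490399, plus strand, overlapped on the minus strand by Gm44079) had medians of 33.9, 33.4 and 39.4 CPM in wt, het and hom, within 23.4 to 52.1 CPM over all 17 tumours. Their SDs of log2 CPM over the 15 tumours, 0.25 and 0.32, were at or under that of the median gene.

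Of the targets, Pdk4 (chr6:5483351-5496309, minus strand) and Angptl4 (chr17:33773750-33781830, minus strand) spread most. Pdk4 was at 70.3 CPM in wt 2, 45.8 in wt 1, 26.6 in wt 3, 13.6 in wt 6, 12.02 in wt 5 and 6.57 in wt 4. It was at 36.8, 26.2, 14.8, 16.7 and 6.73 CPM in het 1, 2, 3, 5 and 6, and between 18.8 and 40.3 CPM in hom, with a median of 23.2. The hom tumours thus lay inside the wide wt range, and the lowest Pdk4 values, in wt 4 and het 6, came from tumours that were also among the 3 lowest for Ppara.

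Angptl4 was at 8.51 to 50.7 CPM in wt (median 13.5), at 11.6, 20.3, 10.9, 9.05 and 13.4 CPM in het 1, 2, 3, 5 and 6, and at 8.69 to 39.2 CPM in hom (median 17.8). Single tumours stood high in each genotype: wt 2, het 2, hom 3 and hom 6. Cpt1a (chr19:3322334-3385733, plus strand) was at 206 CPM in wt 1, 201 in wt 2, 172 in wt 6, 126 in wt 5, 124 in wt 3 and 99.2 in wt 4. In het it was at 247 CPM in het 1 and 150 to 157 CPM in the other four, and in hom at 167 to 213 CPM with a median of 194.

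Plin2 (chr4:86648386-86670060, minus strand) was at 124 CPM in wt 1 and 114 in wt 2, against 56.4 to 76.2 in the other wt tumours, 52.2 to 86.3 in het and 62.7 to 76.2 in hom. The 2 acyl-CoA thioesterases overlapped between all genotypes. Acot1 (chr12:84009490-84018371, plus strand) ran from 12.1 to 35.05 CPM and Acot2 (chr12:83987861-83993873, plus strand) from 6.39 to 16.2 CPM over 17 tumours, both highest in het 1 and second highest in wt 6. They are neighbours with similar sequence: 24.6% of the stretches of 50 bases in Acot2 transcripts also occur in Acot1, so how reads were divided between them is uncertain.

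**Figure D1:**
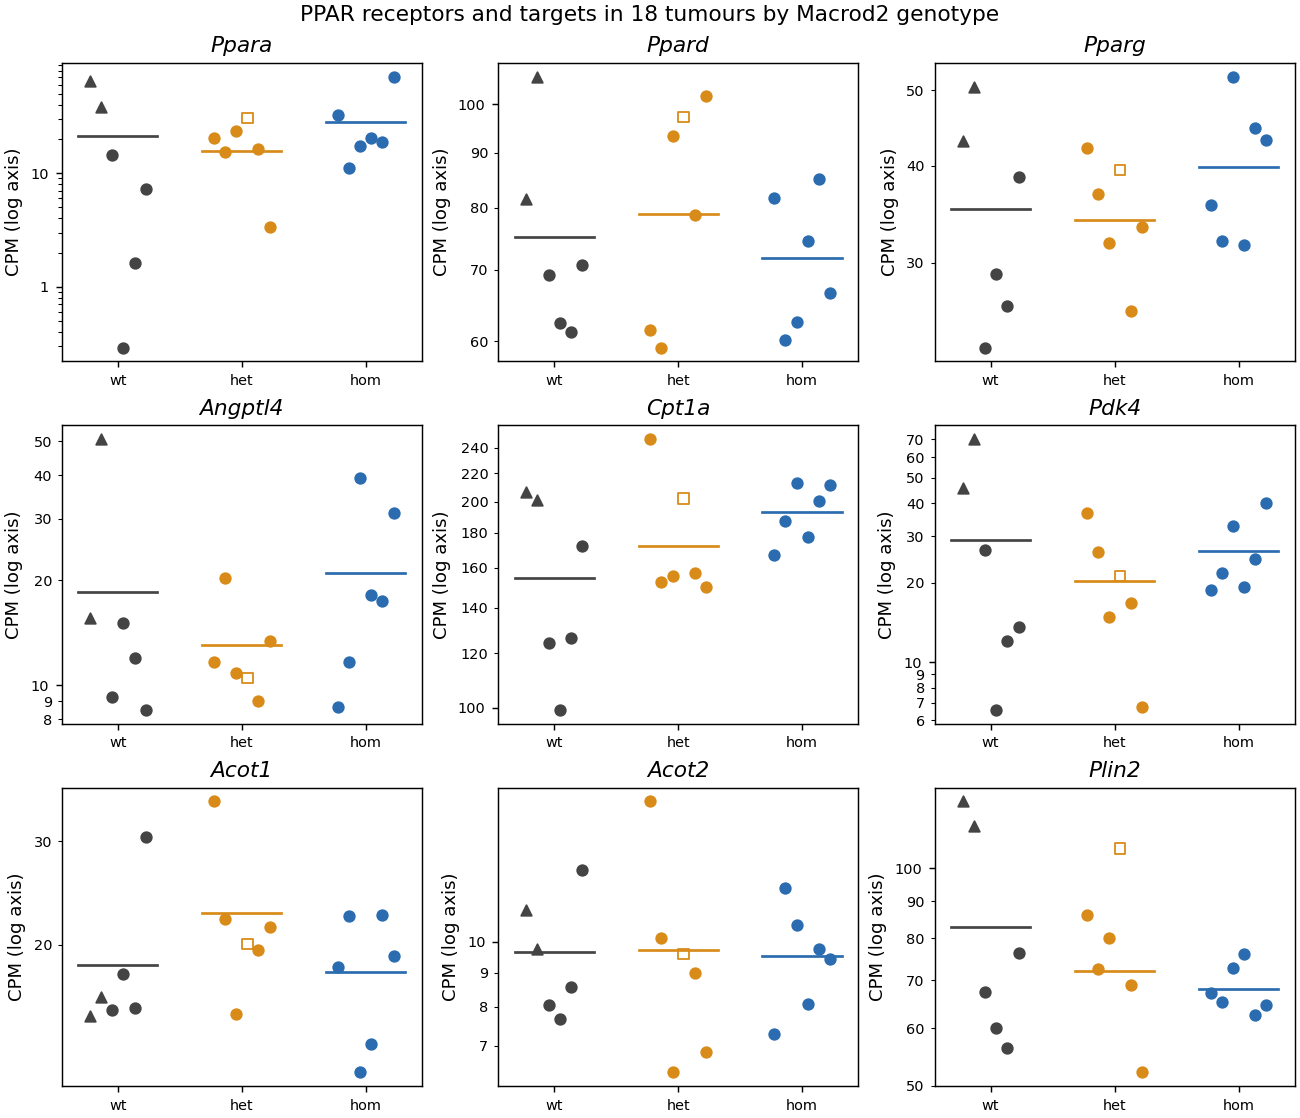
CPM of the 9 genes in each tumour (log axis), by Macrod2 genotype; triangles are wt 1 and wt 2, the open square is het 4 from the small intestine, and lines are means without het 4. Ppara in wt spans 0.292 to 64.6 CPM, and Plin2 in the triangles and the open square lies above all other tumours.

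None of the 9 genes passed the test in any of the 3 genotype comparisons (edgeR's quasi-likelihood test, Benjamini-Hochberg adjustment over 14271 genes), and none reached an unadjusted p of 0.05. DESeq2 also called 0 of the 9 in each comparison. Of all genes, 0.00701% passed the adjusted and 16% the unadjusted threshold for hom and wt; the shares were 0% and 2.85% for het and wt, and 0.00701% and 2% for hom and het. In hom against wt, 4 of the 9 were higher and 5 lower, with a median log2 fold change of -0.05 against -0.03 for all genes. Of all genes, 45.7% were higher. Ppara was at 0.39 (SE 0.83, 95% interval -1.37 to 2.14, adjusted p = 0.830), Ppard at -0.10 (interval -0.45 to 0.25) and Pparg at 0.14 (-0.25 to 0.54). These intervals leave room for more than a 4-fold difference in Ppara in the upward direction, while for Ppard and Pparg they are narrower.

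Of the targets in hom against wt, Plin2 had the smallest adjusted p, 0.389, at a log2 fold change of -0.32 (SE 0.19, interval -0.72 to 0.07). Cpt1a was next at 0.28 (SE 0.18, interval -0.09 to 0.65, edgeR adjusted p = 0.423). The values of Angptl4, Pdk4, Acot1 and Acot2 were 0.13, -0.19, -0.06 and -0.05. In het against wt, 3 genes were higher and 6 lower, beside 43.2% of all genes higher. Their log2 fold changes ran from -0.56 (Pdk4) to 0.27 (Acot1), with an edgeR adjusted p of 0.999 for each. In hom against het, 5 were higher and 4 lower, beside 48.2% of all genes higher. The values ran from -0.33 (Acot1) to 0.84 (Ppara), with an edgeR adjusted p of 0.9998 for each. The comparisons share tumours: wt enters both comparisons against wt, and het enters 2 of the 3.

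Without wt 1 and wt 2, which leaves 4 wt tumours, the values of hom against wt turned for 4 genes (Ppard, Pdk4, Acot2 and Plin2). In this fit 8 of 9 were higher in hom, against 50.6% of all genes. Ppara was then at 2.29 (SE 0.81, interval 0.57 to 4.01), Cpt1a at 0.56 (SE 0.16), Angptl4 at 0.90 (SE 0.37) and Pparg at 0.43 (SE 0.18), and these 4 had an unadjusted p under 0.05 in the upward direction, as did 11.6% of all genes. No member passed after adjustment; the smallest edgeR adjusted p was 0.124, for Cpt1a. The mean of Ppara in wt 3 to wt 6 was 5.89 ± 6.41 CPM (SD, n = 4) against 28.5 ± 21.9 in hom (SD, n = 6), and the ranges still overlapped. In het against wt all 9 were higher without the pair, against 50.2% of all genes. Of the 9, 1, Cpt1a, had an unadjusted p under 0.05 (0.40, SE 0.17), beside 4.31% of all genes, and its edgeR adjusted p was 0.619. These fits leave out tumours chosen by their expression, so their values describe what those tumours contribute.

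**Figure D2:**
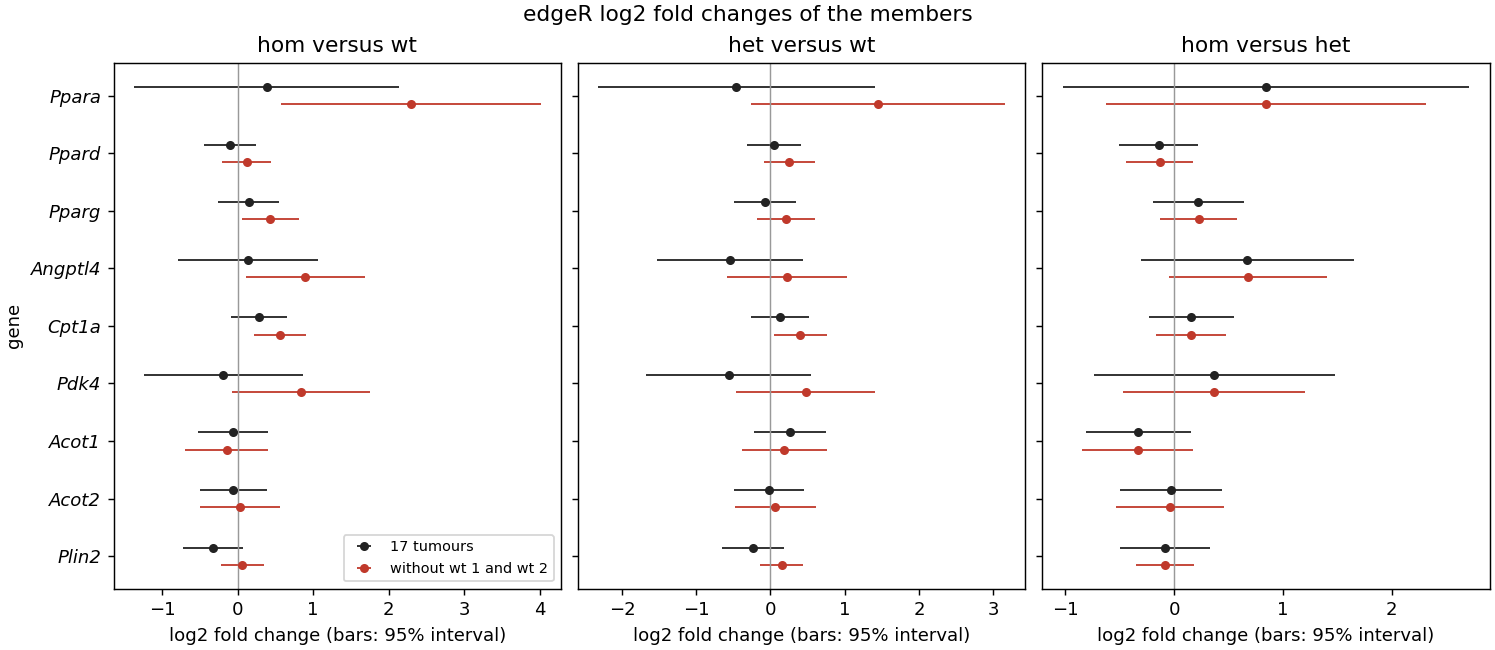
log2 fold change of each gene in the 3 genotype comparisons, from edgeR; points are estimates and bars 95% intervals, for 17 tumours (black) and without wt 1 and wt 2 (red). With 17 tumours every interval crosses 0; without the pair the intervals of Ppara, Pparg, Angptl4 and Cpt1a in hom versus wt lie above 0, with no adjusted p under 0.124.

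Marker genes of other cells moved beside these values. The mean log2 CPM of 10 small intestinal epithelium genes ran from 3.03 to 8.46 in wt, 6.24 to 8.61 in het and 6.30 to 8.89 in hom. That of 8 surface epithelium genes, from a list drawn up for colonic surface cells, ran from 3.77 to 6.87 in wt, 5.13 to 6.62 in het and 5.74 to 6.89 in hom, and that of 10 proliferation genes from 6.47 to 7.32, 5.90 to 7.26 and 5.64 to 6.70. Without wt 1 and wt 2, the genes higher in hom than in wt were 10 of 10 small intestinal, 6 of 8 surface, 6 of 6 goblet cell, 10 of 10 hypoxia, 3 of 3 adipocyte, 7 of 9 macrophage, 5 of 6 endothelial, 1 of 7 smooth muscle and 0 of 10 proliferation genes, against 50.6% of all genes. The 3 adipocyte genes, Cidec, Fabp4 and Lipe, are also in the lipid droplet and uptake lists below. Adipoq and Plin1, which define adipocytes, were at or below 2.17 and 0.228 CPM. Adipoq and Cfd, also on the adipocyte list, were highest in het 6 (2.17 and 7.02 CPM) and hom 6 (0.868 and 5.82 CPM). None of these marker genes passed the adjusted threshold. At an unadjusted edgeR p under 0.05, 6 hypoxia, 5 small intestinal, 3 surface, 2 goblet cell, 2 adipocyte, 1 macrophage and 1 endothelial gene were higher. Of all genes, 11.6% were higher at this threshold. Lower were 4 proliferation genes and 1 macrophage gene. The part of these marker genes in the values of Ppara and its targets was not tested, and in bulk tumours fewer cells of a type and less RNA per cell cannot be told apart.

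The wider fat oxidation genes were read from lists of 5 to 22 tested genes, 98 genes in all, and none passed the adjusted threshold in any comparison with edgeR or DESeq2. At an unadjusted p under 0.05 edgeR gave 11 of the 98 in hom against wt (11.2%, against 16% of all genes), 3 in het against wt (3.06% against 2.85%) and 1 in hom against het (1.02% against 2%). In hom against wt, 45.7% of all genes were higher. For mitochondrial beta oxidation 8 of 22 genes were higher and 14 lower (median -0.09), and for peroxisomal oxidation 3 of 12 were higher and 9 lower (median -0.10). For fatty acid uptake, binding and activation 9 of 16 were higher and 7 lower (median 0.07). PPAR partners and coregulators, such as Rxra, were higher in 10 of 14 (median 0.18). Lipid droplet and lipolysis genes were higher in 5 of 14 (median -0.13), ketone body genes in 2 of 5 (median -0.26), paralogs of the members in 7 of 11 (median 0.06) and the other PPARα targets in 3 of 8 (median -0.12). Without wt 1 and wt 2 the medians of the mitochondrial, peroxisomal and uptake lists were 0.25, 0.33 and 0.63, with 19 of 22, 11 of 12 and 14 of 16 genes higher, against 50.6% of all genes. Partners and coregulators were then higher in 12 of 14 (median 0.29), lipid droplet genes in 11 of 14 (0.36), other PPARα targets in 5 of 8 (0.49), ketone body genes in 3 of 5 (0.08) and paralogs in 7 of 11 (0.05).

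The tumours wt 1, wt 2 and het 4 were set beside the 15 others as values only, since they were grouped by their expression and het 4 is a single small intestinal tumour. Plin2, at 124, 114 and 107 CPM, was the 1 member for which all 3 lay above every other tumour (highest 86.3 CPM); 3.27% of tested genes lay above in this way and 1.42% below. Mean log2 CPM was higher in the 3 for 8 of the 9 members, by 1.92 for Ppara, 1.12 for Pdk4, 0.75 for Plin2, 0.52 for Angptl4, 0.40 for Ppard, 0.36 for Pparg, 0.30 for Cpt1a and 0.13 for Acot2, and lower by -0.18 for Acot1. Not all 3 went together in every gene: Pdk4 was at 21.2 CPM and Angptl4 at 10.5 CPM in het 4, inside the range of the other het tumours.

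Above all 15 others in these 3 tumours were 8 of 22 mitochondrial beta oxidation genes, among them Cpt2 (121, 124 and 123 CPM against at most 91.4), the partner of Cpt1a on the inner membrane, and Acadvl and Hadha, the first steps of long-chain fat breakdown. So were 6 of 12 peroxisomal genes, among them Ehhadh, the bifunctional enzyme of peroxisomal oxidation. The fatty acid transporter Cd36 was at 98.9, 140 and 47.6 CPM against at most 14.5 in the others. Fabp1, the fatty acid binding protein of liver and upper gut, was at 2526, 1743 and 1685 CPM against at most 363. None of the 3 receptors, 14 partners and coregulators or 11 paralogs lay above, and of the remaining lists 2 of 5 ketone body, 4 of 16 uptake and activation, 3 of 14 lipid droplet and 2 of 8 other PPARα target genes did. Beside these, 5 of 10 small intestinal epithelium genes lay above, Gata4 among them, which had set these tumours apart, and 3 of 10 lay below (Fabp6, Onecut2 and Slc10a2). No surface epithelium gene of 8 lay above or below.

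Likeness between genes was measured over the 15 tumours without wt 1 and wt 2, on log2 CPM. Of the 36 pairs of members, 0 passed after adjustment over 36 pairs in both Pearson's r and Spearman's rho (permutation tests, 100000 resamples, two-sided), while 4 passed in r alone. Ppara and Pdk4 had r = 0.80 and rho = 0.59 (permutation p = 0.00038 and 0.0226, adjusted 0.0115 and 0.150, r = 0.73 without wt 4 and wt 5). Ppara and Cpt1a had r = 0.73 and rho = 0.60 (permutation p = 0.00169 and 0.0193, adjusted 0.0203 and 0.150), but r fell to 0.37 without wt 4 and wt 5, so it rested on those 2 tumours. Pparg and Cpt1a had r = 0.77 and rho = 0.76 (permutation p = 0.00064 and 0.00167, adjusted 0.0115 and 0.0601, r = 0.72 without hom 3 and wt 3). Cpt1a and Pdk4 had r = 0.72 and rho = 0.67 (permutation p = 0.00266 and 0.0084, adjusted 0.0239 and 0.116), but r fell to 0.51 without het 1 and wt 4. Plin2, Acot1, Acot2, Angptl4 and Ppard had no pair that passed in either measure over these 15 tumours. With wt 1 and wt 2 included, 5 pairs passed in both: Ppara with Pdk4 (rho 0.71) and with Cpt1a (0.66), Pparg with Cpt1a (0.79), and Cpt1a with Pdk4 (0.73) and with Acot2 (0.66). Since wt 1 and wt 2 stood apart from the 15 others, these pooled values mix differences between the 2 sets with likeness within the 15.

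The gene most like Ppara among 11462 compared was Ehhadh, with rho = 0.975 (n = 15 tumours), described without a test since it was picked as the highest. Ehhadh was at 7.01 CPM in wt 4, 9.89 in wt 5, 14.95 in het 6 and 16.5 in wt 6, the 4 tumours lowest in Ppara, and at 47.5 CPM in hom 6, the highest of the 15. Its rho with Ppara stayed within 0.95 to 0.99 under other scalings, over all 17 tumours, as deviations from the genotype means and without each tumour in turn. Other fixed genes high in likeness were Acsl1 (0.91), which activates long-chain fatty acids, Acot4 (0.90), a peroxisomal thioesterase, Rxra (0.88), the partner receptor, and Plin3 (0.88), a droplet coat. Hilpda (-0.31), which inhibits lipolysis, and Ucp2 (-0.64), a mitochondrial carrier, were not among them.

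By list, rho with Ppara was at least 0.7 for 5 of 8 other PPARα targets, 6 of 11 lipid droplet genes, 6 of 12 peroxisomal genes, 3 of 6 paralogs of the members, 5 of 13 partners and coregulators, 5 of 14 uptake and activation genes, 7 of 21 mitochondrial genes and 0 of 5 ketone body genes. Over all genes compared the share was 13.0% (1489 of 11462). The points share libraries and cell makeup, so these shares describe the tumours and not a link between the genes.

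**Figure D3:**
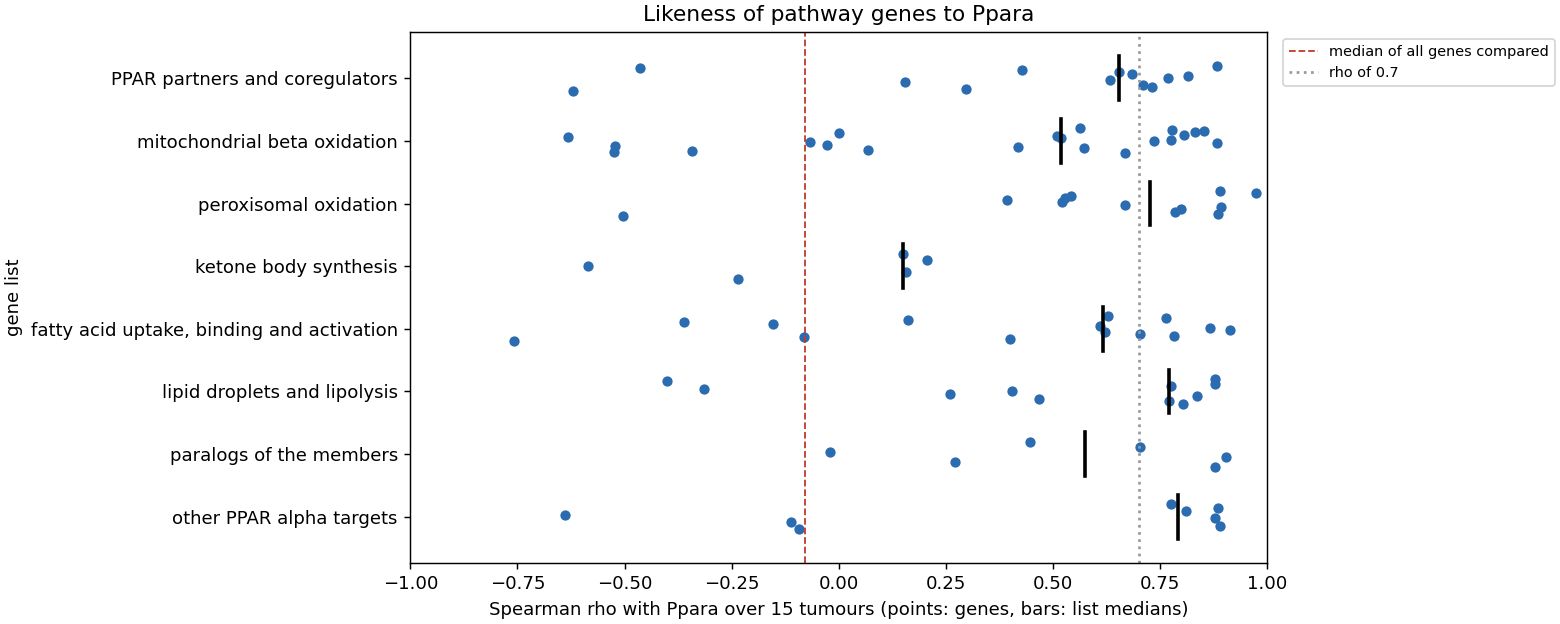
Spearman rho with Ppara over 15 tumours for the genes of each list (points), with list medians (bars) and the median of all genes compared (dashed line, -0.08). Peroxisomal genes, lipid droplet genes and other PPARα targets have medians of 0.73, 0.77 and 0.79.

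Most like the other members were B3gnt3 for Ppard (rho 0.91), Golga5 for Pparg (0.91), Vsig10l for Angptl4 (0.90), Mospd1 for Cpt1a (0.90), Dcaf5 for Pdk4 (0.95), Serpine2 for Acot1 (0.82), Wdsub1 for Acot2 (0.90) and 2510049J12Rik for Plin2 (0.87). For the mean of the 6 targets, each centred, these were Cul9 (0.98), Fam210b (0.95), Plgrkt (0.95), Ctsf (0.94) and Cplx2 (0.94). No other PPAR target of the fixed list led any of these 8 members or the mean, unlike Ppara, whose nearest gene was one. That mean was highest in het 1 (0.55), hom 6 (0.42) and hom 3 (0.38) and lowest in wt 4 (-0.45) and het 6 (-0.39), in log2 units around the mean of the 15 tumours.

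**Figure D4:**
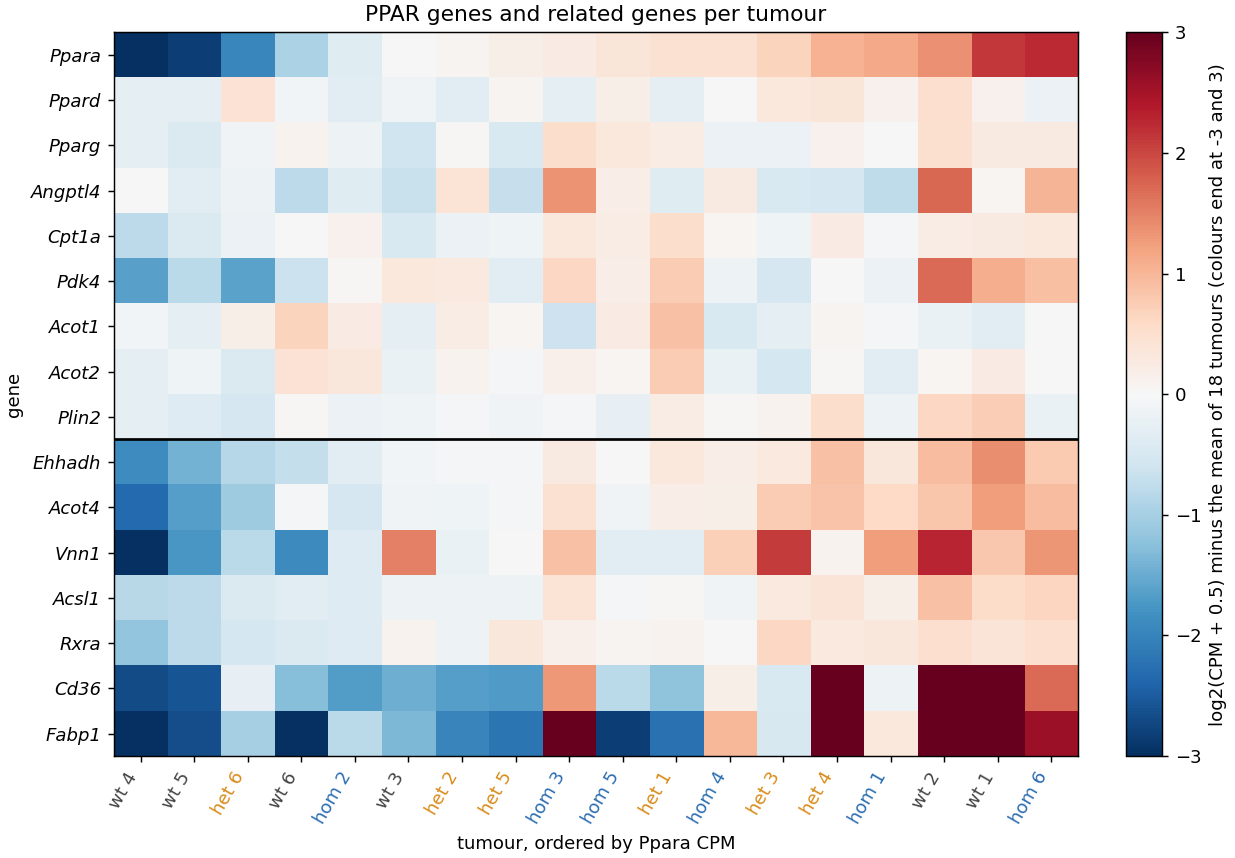
log2(CPM + 0.5) minus the mean of 18 tumours for the 9 members (above the line) and 7 related genes, with tumours ordered by Ppara and their names coloured by genotype (grey wt, orange het, blue hom). Ehhadh, Acot4 and Acsl1 follow the order of Ppara from wt 4 to hom 6, whereas Ppard, Acot1 and Acot2 do not.

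Each member was also set against 9 marker scores, 81 relations in all, and over the 15 tumours 4 passed after adjustment in both measures. With wt 1 and wt 2 included 22 passed, these 4 among them: 6 of Pdk4, 5 each of Ppara and Cpt1a, 4 of Pparg and 1 each of Angptl4 and Plin2. The count thus depends on leaving out 2 tumours chosen by their expression. The surface score held Car4, Krt20, Slc26a3, Aqp8, Guca2a, Ceacam20, Slc20a1 and Emp1, and not each of them followed Ppara. From wt 4, lowest in Ppara, to hom 6, highest in it, Krt20 went from 481 to 1889 CPM but Slc20a1 from 90.2 to 66.6. Aqp8 was highest in wt 5 (7.70 CPM), which was low in Ppara. Ppara rose with the mean of these 8 genes (r = 0.98, rho = 0.95, permutation p = 1e-05 for both, the smallest that 100000 resamples can give, adjusted 0.00081 and 0.000405, n = 15). Without wt 4 and wt 5 r was 0.96. With the small intestinal score it had r = 0.89 and rho = 0.87 (permutation p = 3e-05 and 5e-05, adjusted 0.00121 and 0.00135, r = 0.75 without those 2 tumours); as deviations from the genotype means this relation no longer passed in rho (0.67). The adipocyte score gave r = 0.76 and rho = 0.74 (permutation p = 0.0008 and 0.00238, adjusted 0.0108 and 0.0482). Its r fell to 0.54 without wt 4 and wt 5, and it too no longer passed as deviations from genotype means (rho 0.56). The macrophage score gave r = 0.82 and rho = 0.55 with Ppara (permutation p = 0.00034 and 0.0386, adjusted 0.00551 and 0.179). Its r was 0.62 without wt 4 and wt 5, and it passed in both measures as deviations from genotype means (r = 0.81, rho = 0.84). The adipocyte score rested on Cidec, Fabp4 and Lipe alone, since Adipoq, Plin1, Lep, Retn and Cfd had means under 1 CPM. The defining genes Adipoq and Plin1 were at or below 2.17 and 0.228 CPM in every tumour. Adipoq and Cfd were highest in het 6 (2.17 and 7.02 CPM) and hom 6 (0.868 and 5.82 CPM). Of these tumours, hom 6 was the highest of the 15 in Ppara and het 6 was among the lowest. The part of adipocytes in single tumours was not tested.

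Pdk4 fell as the score of 10 proliferation genes, such as Mki67 and Top2a, rose (r = -0.87, rho = -0.92, permutation p = 5e-05 and 1e-05, adjusted 0.00135 and 0.000405, n = 15). Without the 2 tumours farthest from the median of Pdk4, wt 4 and het 6, r was -0.86, and as deviations from the genotype means rho was -0.81. Ppara with the same score had r = -0.65 and rho = -0.58 (permutation p = 0.00888 and 0.0266, adjusted 0.0423 and 0.134), which did not pass in both measures. Over the 15 tumours none of the other members had a relation with any of the 9 scores that passed in both measures.

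**Figure D5:**
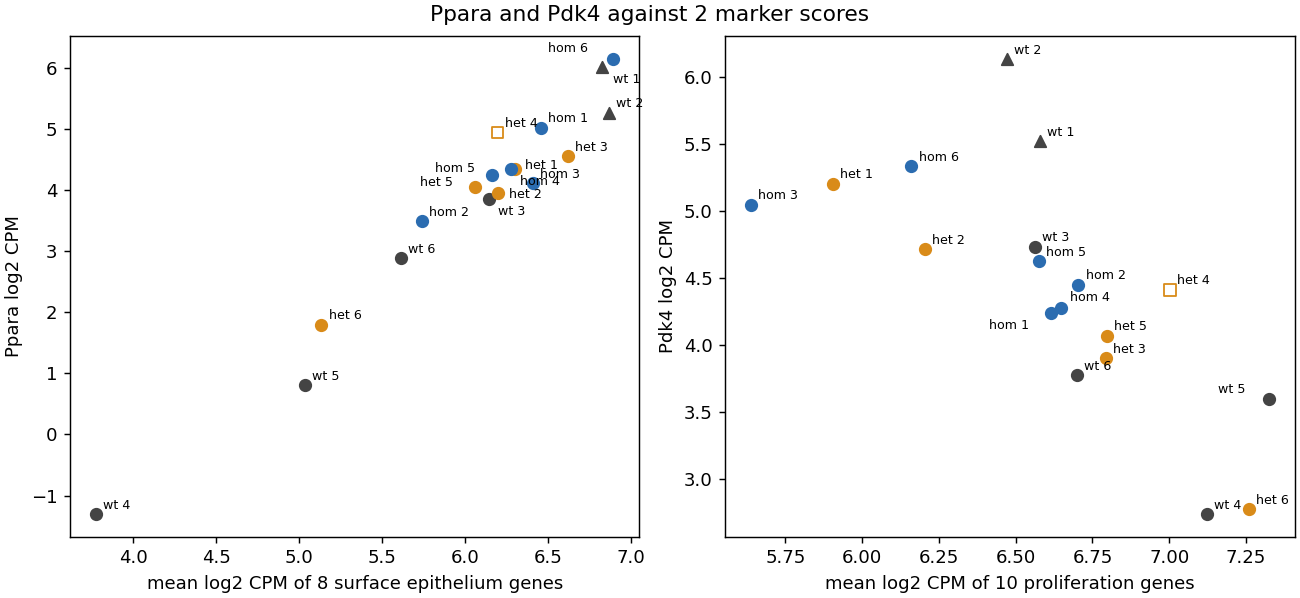
log2 CPM of Ppara against the mean log2 CPM of 8 surface epithelium genes (left), and of Pdk4 against that of 10 proliferation genes (right), 1 point per tumour (grey wt, orange het, blue hom; triangles wt 1 and wt 2, open square het 4). Ppara climbs with the surface score from wt 4 to hom 6 (r = 0.98 over 15 tumours), and Pdk4 is lowest in the tumours with high proliferation scores (r = -0.87).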

How the data were processed

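The authors deposited 2 tables for 18 libraries, of read counts per gene and of RPKM values; per the submitters' processing notes, featureCounts (Subread 1.4.5-p1), TopHat and Trimmomatic were used, with mm10. Per the labels' protocols, a TruSeq Stranded Total RNA kit was used; polyA RNA is what the molecule label says, and the strand setting of counting is not given in the sources used here. Counts were tested with edgeR 4.0.16 in R 4.3.3 (filterByExpr, TMM factors, robust quasi-likelihood fit, 17 large intestinal tumours) with Benjamini-Hochberg adjustment at 0.05, and DESeq2 1.42.0 was an alternative. The scripts were tested on simulated data. Standard errors are the log2 fold change divided by the root of F, and 95% intervals use the total degrees of freedom. Correlations used log2 CPM (prior count 2) of 15 tumours. Marker scores are mean log2 CPM of list genes with a mean of at least 1 CPM; Car1 was under it, and Muc3 was not matched. Gene positions are from GENCODE on GRCm38, the build of mm10. Members, lists and the rule for named genes (the members, fixed pathway genes, listed pathway genes past the threshold, and the genes most alike with a mean log2 CPM of at least 2) were chosen with earlier results of these data known, as was the setting apart of wt 1 and wt 2. The labels number mice but name no shared litter or day, and libraries of 13529204 to 20857918 counts limit precision for low genes.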

Additional observations from a re-analysis of the deposited data

Results flagged for a closer look

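In 4 of 27 combinations of gene and genotype, 1 tumour lay farther from its group than Dixon's 95% critical value allows. Chance gives about 1 in 20 where values are normally distributed. The flags were set on CPM and not on log2 CPM, and a skewed scale can flag high values more often. Ppara was at 70.8 CPM in hom 6, against 32.4 CPM in the next hom tumour. Angptl4 was at 50.7 CPM in wt 2, against 15.6 CPM in wt 1, the next of its group. Cpt1a was at 247 CPM in het 1, whose 4 fellow large intestinal het tumours lay between 150 and 157 CPM. Acot1 was at 30.5 CPM in wt 6, against 17.8 CPM or less in the other wt tumours. The 4 flags fall in 4 different tumours and 4 different genes.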

How the results depend on the processing

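No member passed the adjusted threshold in the main fit or in any of the 24 other fits, in any of the 3 genotype comparisons. Genes past the threshold in hom against wt numbered 1, and 22 with DESeq2, 2 with the replicate block, and 1 to 2 without each tumour in turn; in hom against het there was 1, and 0 with the replicate block. Of 16 pairs of tumours with the same mouse number, 4 correlated above 0.1, and 1 of 17 tumours correlated best with its own number. No share for pairs with different numbers is given beside these, so they do not settle whether equal numbers mark related tumours. With the replicate block, log2 fold changes turned for Pdk4 in hom against wt (0.31), Ppara in het against wt (0.0583) and Acot2 in hom against het (0.0786).

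Without wt 1 and wt 2, those in hom against wt turned to 0.12 for Ppard, 0.84 for Pdk4, 0.0312 for Acot2 and 0.0627 for Plin2. In het against wt they turned to 1.45 for Ppara, 0.21 for Pparg, 0.22 for Angptl4, 0.48 for Pdk4, 0.0672 for Acot2 and 0.15 for Plin2. Acot2 in het against wt also turned with no filter on low counts (0.00628) and with all 18 tumours and a site term (0.0124).

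Leaving out each tumour in turn crossed 0 in hom against wt for Ppara (-0.0695 to 1.17), Ppard (-0.13 to 0.0457), Angptl4 (-0.13 to 0.78), Pdk4 (-0.35 to 0.31), Acot1 (-0.12 to 0.16) and Acot2 (-0.11 to 0.0682). It did so in het against wt for Ppara (-0.66 to 0.32), Ppard (-0.0366 to 0.18), Pparg (-0.15 to 0.0729), Angptl4 (-0.71 to 0.10), Cpt1a (-0.00691 to 0.23) and Acot2 (-0.25 to 0.12), and in hom against het for Acot2 (-0.15 to 0.23). Member pairs past both measures numbered 0, and 1 as deviations from genotype means, 5 over all 17 tumours and 0 to 2 without each tumour; marker relations numbered 4, and 22 over all 17. The cause of these shifts was not tested. Ppara in wt 4 rests on 4 counts.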
